A study of Mus musculus with 5 samples.

Results

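The cells described here were macrophages of the mouse lung 3 days after bleomycin that carried both Ly6c2, a surface antigen gene of inflammatory monocytes, and Ms4a7, a membrane protein gene of monocyte-derived and interstitial macrophages. They were chosen by raw transcript counts (unique molecular identifiers, UMIs) in single cells of the day 3 library. A cell had to pass the quality limits of 300 to 8000 detected genes, 800 to 60000 UMIs and under 15% of UMIs from mitochondrial genes, and to hold at least 3 Ly6c2 UMIs, at least 1 Ms4a7 UMI, at least 1 Csf1r UMI, at most 1 Car4 UMI and none of Flt3, Cd3e and Cd79a. Of 8004 cells that passed the quality limits at day 3, 1535 met the rule, 19.2% (exact 95% binomial interval 18.3 to 20.1). The 5 libraries of the series together held 44772 passing cells.

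Lung immune cells had been captured by droplet 3′ single-cell RNA sequencing from Ms4a3-CreER;R26-tdT mice, which had all received tamoxifen, so that cells descending from Ms4a3-expressing granulocyte-monocyte progenitors could carry the tdTomato reporter (counted as the added feature RFP). The 5 groups were a PBS sham and days 3, 7, 14 and 28 after intratracheal bleomycin, in adult animals on a mixed C57BL6/129 background. The study as a whole used both sexes, and its methods state no sex for these libraries. Each group was 1 library, and the labels do not say how many animals were pooled in it. Differences between libraries and between gates therefore had no replicate check, no test was made, and every interval below covers counting error only.

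Ly6c2-high monocytes leave the bone marrow through the chemokine receptor Ccr2 and enter injured tissue. There they lose monocyte transcripts and, under control of the receptor Csf1r, gain those of macrophages: complement C1q, phagocytic receptors, lysosomal proteases and lipid-handling proteins. In the bleomycin lung, such monocyte-derived cells are known to be a source of the macrophages that accompany fibrosis, whereas resident alveolar macrophages, marked in the mouse by Car4, are seeded around birth.

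The genes that set the rule describe the cells and are no finding. Ly6c2 (chr15:75108158-75111970, minus strand, GRCm38) had a median of 46 UMIs per member, from 3 to 291. Ms4a7 (chr19:11321039-11336146, minus strand) had a median of 9, from 1 to 128, and Csf1r, the receptor of the macrophage growth factors Csf1 and Il34, had a median of 5, from 1 to 34. A single Car4 UMI was present in 185 members (12.1%). C3ar1, the receptor of the complement fragment C3a, was named as a marker of these cells but not used by the rule (chr6:122847138-122856161, minus strand). At least 1 C3ar1 UMI was seen in 1350 members (87.9%), with a median of 7 per cell and 0 to 40 over the cells. The markers were thus present in most members, although 68 members in a cluster described further on held little C3ar1.

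The members were deeply covered, with a median of 15573 UMIs (quartiles 12130 and 19361) and 3744 genes, against a median of 9260 UMIs over all passing cells of the library. Their median mitochondrial share was 1.15%. The day 3 file held 89769386 UMIs over 8971 barcodes, and the sham, day 7, day 14 and day 28 files held 131210167, 151234640, 144984156 and 167506186 UMIs. The lowest barcode total was 4624 UMIs at day 7, in a file of 10000 barcodes, and 500 to 502 in the other libraries. Shares of passing cells at day 7 were thus taken over deeper cells only. They are not like for like with the shares of other days, and the effect of this was not tested. Barcodes shared with the day 3 library numbered 20 in sham, 27 at day 7, 18 at day 14 and 16 at day 28, and members accounted for 3, 4, 6 and 2 of them. Among the members, 72 (4.69%) were predicted doublets, compared with 6.41% of the library.

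Transcripts of most other cell types were low but not absent. In CPM, the UMIs of a gene per 1000000 UMIs summed over the cells of a gate, a list of T cell markers summed to 199 in the members and 4803 in the T cell gate, and 171 of the 199 were Il7r. B cell markers summed to 64.0 against 14376 in B cells, and Ighm was the most abundant at 28.5. Neutrophil markers summed to 589 against 124467 in neutrophils, led by S100a9 at 256. Alveolar macrophage markers summed to 208 against 5200 in the Car4 macrophages, led by Fabp4 at 73.1. Epithelial markers summed to 87.8, of which the club cell secretory transcript Scgb1a1 gave 75.8, and the same list reached 1076 in B cells and 1428 in T cells. Lists that share genes with macrophages summed higher: conventional dendritic cell markers to 2012, of which Cst3 gave 1982, plasmacytoid dendritic cell markers to 2093, of which Bst2 gave 2073, and nonclassical monocyte markers to 1050, of which Cd9 gave 629. The endothelial list summed to 17.3, with Pecam1 at 5.12, the fibroblast list to 58.9, with Col1a1 at 12.5, and the NK cell list to 74.1, with Gzma at 46.7. Of the genes of all lists, Alas2 and Ms4a3 were at 0 UMIs in the members. The part of these transcripts in the results below was not tested.

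The gate was filled mainly at day 3. The same limits took 5 of 9238 cells in sham (0.0541%, interval 0.0176 to 0.126), 274 of 9493 at day 7 (2.89%, 2.56 to 3.24), 4 cells at day 14 (0.0516%) and 4 cells at day 28 (0.0389%). Because a deeper cell reaches a UMI limit more easily, each cell was also thinned to 2000 UMIs. Then 422 of 7673 cells met the rule at day 3 (5.50%, 5.00 to 6.03), 14 of 9493 at day 7 (0.147%, 0.0806 to 0.247), 1 of 8608 in sham (0.0116%), 1 of 9329 at day 28 (0.0107%) and 0 of 7196 at day 14, which allows a share of up to 0.0512%. Shallower cells left out by the thinning numbered 331 at day 3, 630 in sham, 561 at day 14, 951 at day 28 and none at day 7. The order of day 3 above day 7 above the rest was the same at both depths.

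**Figure D1:**
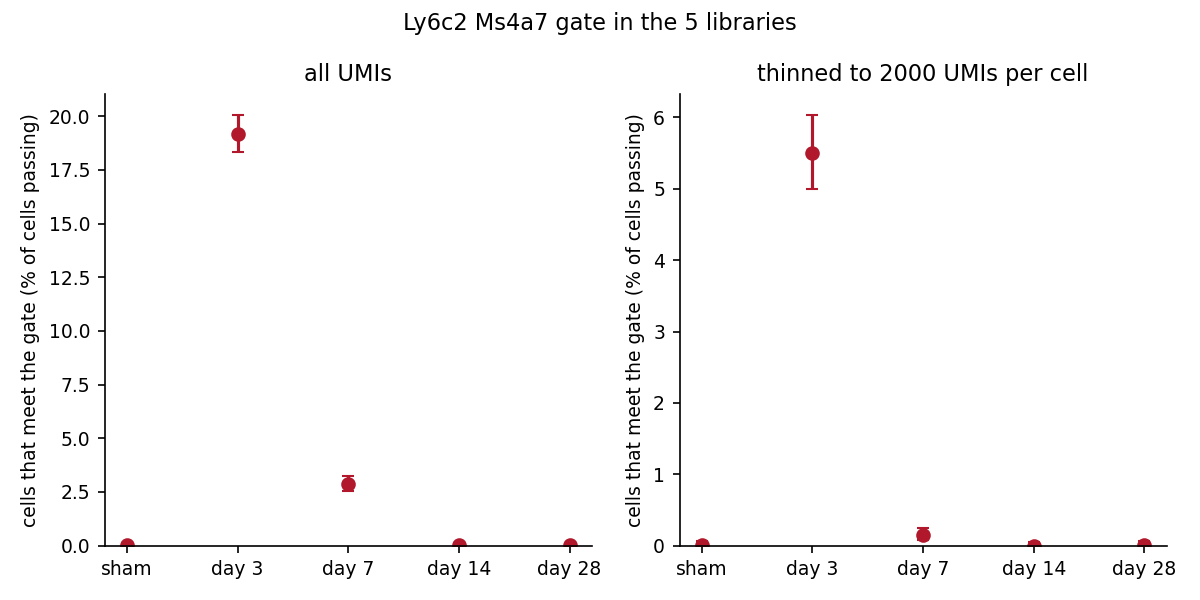
Share of passing cells (percent, vertical axis) that met the Ly6c2 Ms4a7 gate in each library, with all UMIs (left) and after thinning each cell to 2000 UMIs (right). Points are the 5 libraries and bars the exact 95% binomial interval, and day 3 stands at 19.2% and 5.50%, above day 7 at 2.89% and 0.147%.

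The day 3 peak was shared with the Ly6c2-positive cells without Ms4a7, whereas the other neighbouring gates took different courses. Ly6c2-positive cells without Ms4a7 were 0.834% of passing cells in sham, 9.26% at day 3 and 1.51% at day 7. They were 0.142% at day 14 and 0.0486% at day 28. After thinning they were 8.12% at day 3 and 0.348% at day 7. Ly6c2-negative Ms4a7 macrophages were 0.712% at day 3 (57 cells) and 10.5% at day 7 (998 cells), with 1153 cells at day 14 and 1474 at day 28. Car4 macrophages were 58.0% in sham, 8.60% at day 3 and 15.2% at day 7. At day 3 there were thus 1535 members beside 741 Ms4a7-negative monocytes, 57 Ly6c2-negative Ms4a7 macrophages and 688 Car4 macrophages.

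Cells just outside the rule were numerous on the Ms4a7 side. The cells that failed a single limit numbered 741 for Ms4a7, 195 for Csf1r, 136 for Ly6c2, 105 for Cd79a, 73 for Cd3e, 44 for Car4 and 29 for Flt3. The 166 members with exactly 1 Ms4a7 UMI had C1qa at 256 CPM, Plac8 at 4030, Gpnmb at 518 and C3ar1 at 209, and the 741 cells with none had 194, 6011, 182 and 107. Levels of these 4 genes on either side of the Ms4a7 limit were thus nearer to each other than to the mean of all members, whereas Ccl2, at 3162 and 1516 CPM, was near the members' mean of 3271 inside the limit. The 25 members with exactly 3 Ly6c2 UMIs had C1qa at 2239 CPM and Plac8 at 505, and the 37 cells with 2 had C1qa at 2678 and Plac8 at 223. Around the Csf1r limit, Gpnmb stood at 2055 CPM with 1 UMI and 2057 with none. Other genes differed more there: C1qa was at 733 and 497, C3ar1 at 486 and 358 and Cd74 at 3396.5 and 5136. Members with 1 Car4 UMI and the 17 cells with 2 had C1qa at 1326 and 1304 CPM, whereas Ear2, an eosinophil-type ribonuclease gene, was at 15.3 and 107.

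The first comparison asked how the members differed from Ly6c2 monocytes of the same library that met every other limit but had no Ms4a7 UMI (741 cells, median 10417 UMIs, mitochondrial share 1.99%). The members carried more transcripts of complement C1q, scar-associated macrophage genes and lysosomal proteases, and fewer of circulating monocytes. A gene was called when summed CPM differed at least 2-fold, among genes at 100 CPM or more in either gate. Of 1833 genes, 156 (8.51%) were higher in the members and 130 (7.09%) were lower, with a median log2 ratio of 0.0063. The direction of a gene that reaches 100 CPM in a single gate is fixed by that floor. Of the 1347 genes at the floor in both gates, 62 were higher and 45 lower, and the counts of genes at the floor in both are given beside the larger lists. The rule split these cells by Ms4a7, so genes that accompany Ms4a7 had to differ, and the values are a description.

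Macrophage maturation genes were higher nearly throughout, with 11 of 13 called, none lower and a median log2 ratio of 2.24. Of the 10 at the floor in both gates, 8 were higher. C1qa, a chain of the complement initiator C1q, was at 1252 CPM (counting interval 1238 to 1266) in the members and 194 (185 to 204) in the monocytes, a log2 ratio of 2.69 (2.62 to 2.76). C1qc was at 869 and 108. C3ar1 stood at 506 (497 to 515) against 107 (100 to 115) and Adgre1, which encodes F4/80, at 233 against 77.5. Adgre1 reached the floor in the members alone, which fixed its direction. Mertk, a receptor for apoptotic cells, was under the floor in both gates, at 60.1 and 12.3. The exceptions in the list were Cd14 and the Fc receptor gene Fcgr1, the latter at 683 and 637 CPM.

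All 8 scar-associated macrophage genes tested were called higher, with a median of 2.47, among them the 6 at the floor in both gates. Gpnmb, a lysosomal glycoprotein of phagocytes, was at 1865 CPM (1848 to 1882) against 182 (173 to 192), a log2 ratio of 3.36 (3.28 to 3.43). Trem2, a lipid receptor, was at 324 against 31.2, the tetraspanin Cd63 at 803 against 89.2, and Fabp5, a fatty acid carrier, at 3543 against 546. Trem2 and Cd63 reached the floor in the members alone, which fixed their direction. Apoe, the lipid carrier, was at 2264 and 480 CPM. The smallest ratio that belonged to this group was that of osteopontin, Spp1, at 1872 and 886 CPM, a log2 ratio of 1.08. Efferocytosis and scavenger receptors had 1 of 3 genes higher, Msr1 (234 and 105 CPM), and Fc and complement genes 2 of 9. Among 14 lysosome genes, 9 were higher and none lower, including 8 of the 13 at the floor in both gates. Ctsd, an aspartic protease, was at 3155 against 465 CPM, Lgmn, an asparaginyl endopeptidase, at 1798 against 473, and Ctsb, a cysteine protease, at 5083 against 1722. The iron storage genes Fth1 and Ftl1 were also higher, by log2 ratios of 1.43 and 1.22, as were the p53 targets Bax (1.29) and Ccng1 (1.82), whose list had 2 of 4 genes called. Of the 3 p53 targets at the floor in both gates, 1 was higher.

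Of 12 chemokine ligands, all at the floor in both gates, 5 were called higher and none lower. With cells that held an Ace or Treml4 UMI left out, the ratio of Ccl2 given next was 0.50 and no longer called. Ccl2, the ligand of Ccr2, was at 3271 CPM (3249 to 3294) in the members and 1516 (1489 to 1544) in the monocytes, a log2 ratio of 1.11. Ccl7 was at 1720 and 580, Ccl12 at 607 and 164, Ccl5 at 535 and 244, and Cxcl16 at 810 and 339. Among 4 receptors at the floor in both gates, Ccr2 alone was lower, at 213 CPM in the members and 487 in the monocytes. Among 9 cytokine and NF-kB genes, Ptgs2 (1.06), Tnfaip3 (1.20) and Clec4d (1.28) were higher, while Il1b, at 1333 and 2536 CPM, did not reach 2-fold.

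Monocyte genes were lower in 7 of 15 cases and higher in none, with a median of -0.81, and 5 of the 12 at the floor in both gates were lower. Plac8, abundant in Ly6c2 monocytes, was at 1098 CPM (1085 to 1111) in the members and 6011 (5957 to 6066) in the monocytes, a log2 ratio of -2.45. The haptoglobin gene Hp was at 197 against 686 and S100a4 at 559 against 1819. Most nonclassical monocyte markers, such as Ace (15.6 and 223 CPM) and Spn (16.8 and 138), reached 100 CPM in the monocyte gate alone, which fixed their direction. Cd9 was higher in the members (629 and 290 CPM). Among transcription factors, Cebpa (312 and 119 CPM) and the lipid-sensing receptor Nr1h3 (121 and 45.7) were among the higher genes, and Klf2, Id3 and Nr4a1 were lower, the last at 216 and 659 CPM. Nr1h3 reached the floor in the members alone, which fixed its direction. Neutrophil markers were lower in 3 of 4 cases.

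Interferon-stimulated genes and antigen presentation genes did not separate these gates. None of 21 interferon-stimulated genes was called, with a median log2 ratio of -0.30. Isg15, a ubiquitin-like modifier, was at 1523 CPM (1507 to 1538) in the members and 1841 (1811 to 1871) in the monocytes. None of 10 antigen presentation genes was called, and the class II gene H2-Aa stood at 2086 and 2012 CPM. Of 3 alternative activation genes, 2 were lower and Egr2 was higher (107 and 53.5 CPM). Retnla, a secreted product of alternative activation, was at 4.51 CPM in the members and 196 in the monocytes, and Chil3 at 478 and 1998. Egr2 and Retnla each reached the floor in a single gate, which fixed their direction.

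Outside the lists, the largest ratios in favour of the members included Syngr1, a vesicle membrane gene (272 and 20.9 CPM, log2 ratio 3.70), the acute-phase gene Saa3 (158 and 12.3, 3.68), Tmem37 (101 and 12.7) and Il18bp, a soluble inhibitor of interleukin 18 (283 and 37.8). The lowest ratios belonged to Retnla (-5.44) and to nonclassical monocyte transcripts, among them Ace (-3.83), Treml4 (-3.82) and Ceacam1 (-3.70), and to Ifitm6 (-3.50), Pglyrp1 (-3.45) and Ear2 (-3.30). Each gene named in this paragraph reached the floor in a single gate, which fixed its direction.

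The monocyte gate thus held cells with nonclassical transcripts. With every cell that had an Ace or Treml4 UMI removed from both gates, 1341 members and 345 monocytes were left, 120 genes were higher and 79 lower, and 51 of the 66 named calls were kept. C1qa was then 2.14, Gpnmb 2.75, Plac8 -2.36 and Ccr2 -1.47. Among cells of 8000 to 16000 UMIs, which brings the depths together, 174 genes were higher and 147 lower.

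**Figure D2:**
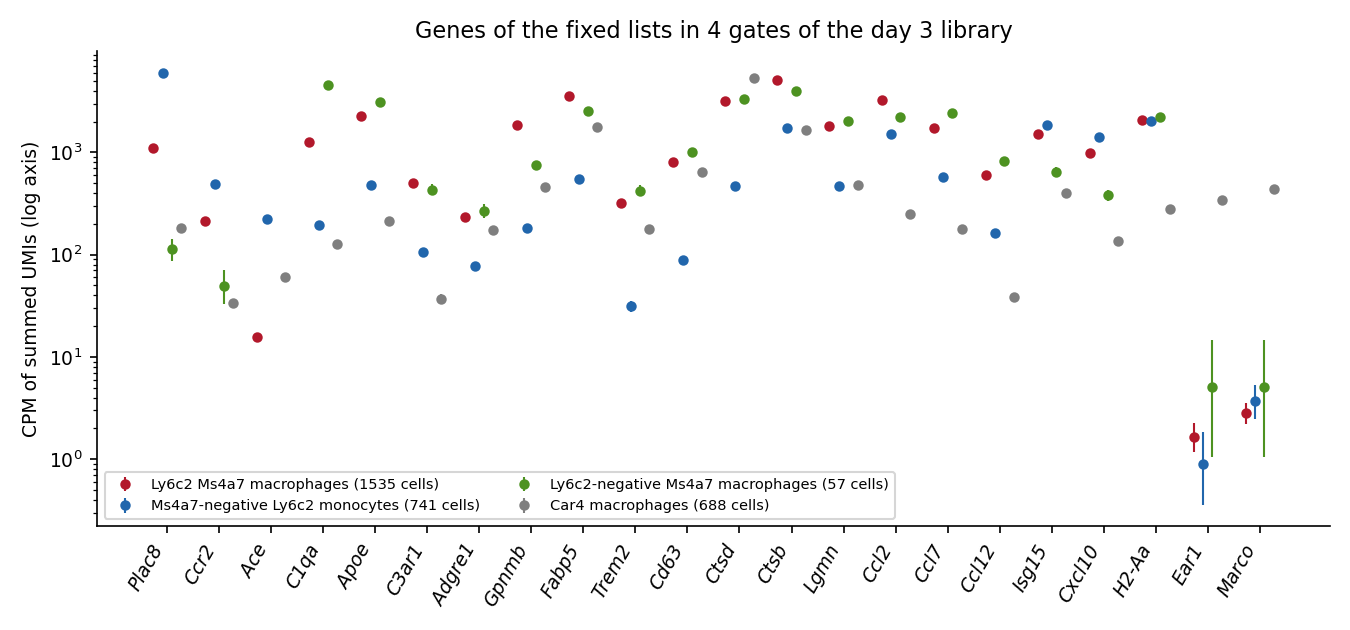
Levels of listed genes (CPM of summed UMIs, log axis) in 4 gates of the day 3 library, with the exact 95% counting interval as bars where it exceeds the point. The members (red) stand between the Ms4a7-negative monocytes (blue) and the Ly6c2-negative Ms4a7 macrophages (green) for Plac8, Ccr2 and C1qa, and above both for Gpnmb and Ccl2. Ace has no point in the Ly6c2-negative gate, which was defined without it.

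**Figure D3:**
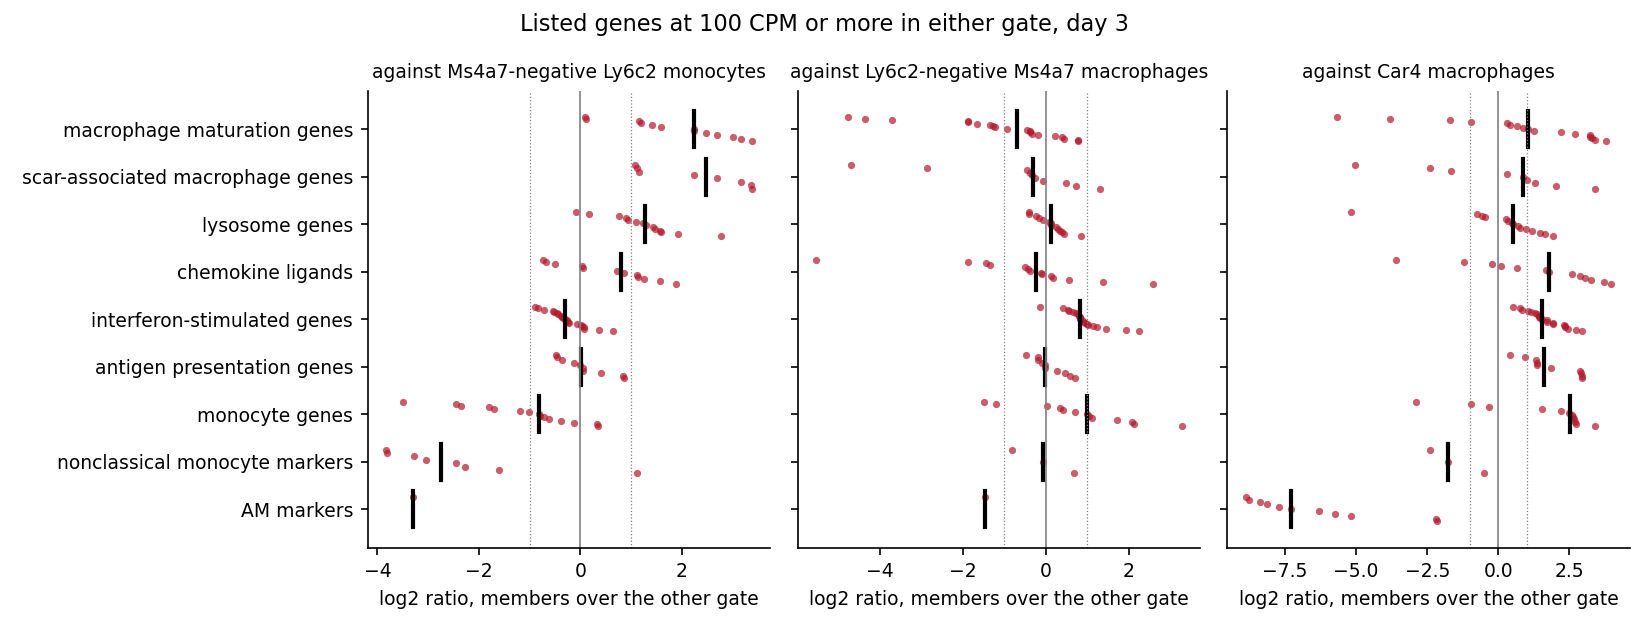
Log2 ratio of the members over each of 3 other gates (horizontal axis, with a scale of its own in each panel) for genes of 9 lists at 100 CPM or more in either gate at day 3. Each point is a gene, the black bar the list's median and the dotted lines a 2-fold difference, and the scar-associated list lies past 2-fold in every gene against the monocytes only.

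The second comparison set the members against the 57 macrophages of the library with Ms4a7 and Csf1r but no Ly6c2 UMI (median 7356 UMIs, mitochondrial share 3.70%). The members carried more monocyte and interferon-stimulated transcripts and fewer C1q transcripts, whereas lysosomal genes stood near the same level. Of 1794 genes, 65 (3.62%) were higher in the members and 86 (4.79%) lower, with a median log2 ratio of 0.068. Of 1411 genes at the floor in both gates, 33 were higher and 32 lower. The small number of cells on the other side widens the counting intervals.

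Monocyte genes were higher in 6 of 13 cases and lower in 2, with a median of 0.98. At the floor in both gates, 5 of 10 were higher and 1 lower. Plac8 was at 1098 CPM in the members and 113 (87.6 to 144) in the Ly6c2-negative cells, a log2 ratio of 3.28 (2.93 to 3.65), and Ccr2 was at 213 and 48.9 (32.8 to 70.3). Interferon-stimulated genes were higher in 6 of 21 cases and lower in none, with a median of 0.84, and in 4 of the 18 at the floor in both gates. Isg15 was at 1523 and 650 CPM, and the interferon-inducible chemokines Cxcl9 and Cxcl10 were at 133 and 21.9 and at 991 and 380. The Ly6 family members Ly6c1 (285 and 6.75) and Ly6i (538 and 54.0) had the highest ratios, 5.40 and 3.32, and Ly6c1 is a near copy of Ly6c2, which the rule used, so that reads could be split between them. Ly6c1, Ly6i, Ccr2 and Cxcl9 reached the floor in the members alone, which fixed their direction.

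Maturation genes were lower in 9 of 20 cases and higher in none, with a median of -0.69, and 3 of the 13 at the floor in both gates were lower. C1qa was at 1252 CPM against 4593 (4422 to 4769), a log2 ratio of -1.87 (-1.93 to -1.82). The genes with the lowest ratios reached the floor in the Ly6c2-negative gate alone, which fixed their direction, and their values describe the gates. The hyaluronan receptor Lyve1 was at 3.52 CPM in the members and 265 in the Ly6c2-negative cells, the folate receptor Folr2 at 11.4 and 290, the lectin Mgl2 at 2.09 and 196, and the B cell chemokine Cxcl13 at 2.13 and 375. Ccl8 was at 22.0 CPM (20.1 to 23.9) and 1031 (951 to 1116), Retnla at 4.51 and 916 and the mannose receptor Mrc1 at 14.2 and 292. Among 10 scar-associated genes tested, Gpnmb was higher (1.31, 1.17 to 1.45). The elastase Mmp12 (14.8 and 388 CPM) and the lipase Lpl (-2.88) were lower. Both reached the floor in the Ly6c2-negative gate alone, which fixed their direction. Of the 8 genes at the floor in both gates, 1 was higher and none lower. None of 14 lysosome genes and none of 10 antigen presentation genes was called.

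Of 14 chemokine ligands, Cxcl9 and Cxcl10 were higher and Ccl8, Ccl6, Ccl9 and Cxcl1 lower. Cxcl9, Ccl8 and Cxcl1 reached the floor in a single gate, which fixed their direction. Of the 11 ligands at the floor in both gates, 1 was higher and 2 were lower. Ccl2, at 3271 and 2221 CPM, Ccl7, at 1720 and 2453, and Ccl12, at 607 and 820, did not reach 2-fold. The interleukin 1 receptor antagonist Il1rn (537 and 233 CPM) and Osm (1.56) were the higher cytokine genes among 9. Among 11 Fc and complement genes, factor B, Cfb, was at 594 and 165 CPM and C3 had a log2 ratio of 1.11, while Cfp (-2.12) and C5ar1 (-1.28) were lower. Both lower genes reached the floor in the Ly6c2-negative gate alone, which fixed their direction. Of the 9 genes at the floor in both gates, 2 were higher and none lower. Neutrophil transcripts were more abundant in the Ly6c2-negative gate, where S100a8 was at 1208 CPM against 187 in the members. Without cells outside 8000 to 16000 UMIs, which left 13 Ly6c2-negative cells, S100a8 turned to a log2 ratio of 4.24 in favour of the members, and 145 genes were higher and 91 lower.

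The third comparison was with the Car4 macrophages (688 cells, median 14564.5 UMIs, mitochondrial share 4.32%), which were close to the members in depth. The members carried more class II and interferon-stimulated transcripts and more of most chemokine ligands tested. Of 1973 genes, 285 (14.4%) were higher in the members and 272 (13.8%) lower, and of 1270 genes at the floor in both gates 110 were higher and 76 lower. Alveolar macrophage markers reached 100 CPM in the Car4 gate alone, so their direction was fixed by that floor and their values only describe the gates. Ear1 was at 1.64 CPM in the members and 342 in the Car4 macrophages, and the scavenger receptor Marco at 2.83 and 441. The lipid droplet gene Cidec (0.287 and 135) and Plet1 (3.69 and 1043) had ratios of -8.88 and -8.14.

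Chemokine ligands were higher in 8 of 13 cases and lower in 2 (Ccl6 and Cxcl1), antigen presentation genes in 8 of 10 and interferon-stimulated genes in 18 of 21, with median log2 ratios of 1.78, 1.60 and 1.53. At the floor in both gates, the higher genes numbered 5 of 9 (1 lower), 7 of 9 and 11 of 13. Ccl2 was at 3271 CPM in the members and 250 (241 to 260) in the Car4 macrophages, Ccl12 at 607 and 38.5, Isg15 at 1523 and 405 and Cd74, the class II invariant chain, at 4795 and 626. C3ar1 was at 506 and 37.1 (33.5 to 40.9), a log2 ratio of 3.77 (3.63 to 3.92). Allograft inflammatory factor Aif1 (617 and 56.0), Slamf7 (361 and 29.7) and the chemerin receptor Cmklr1 (105 and 8.66) were among the largest ratios. Ccl12, C3ar1, Aif1, Slamf7 and Cmklr1 reached the floor in the members alone, which fixed their direction.

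The scar-associated list was split, with 4 of 9 genes higher and 3 lower. Of the 8 genes at the floor in both gates, 4 were higher and 2 lower. Lpl, named below, reached the floor in the Car4 gate alone, which fixed its direction. Gpnmb (1865 and 462 CPM) and Apoe (2264 and 214) were higher in the members, whereas Spp1, at 1872 (1854 to 1889) and 5970 (5923 to 6016), Cd9 (629 and 3295) and Lpl (-5.02) were lower. Ctsd, at 3155 and 5298, was not called. Car4 also marks lung capillary endothelium, and the endothelial list summed to 573 CPM in the Car4 gate. Without cells that had a Pecam1, Cdh5 or Cldn5 UMI, 1384 members and 594 Car4 macrophages gave 287 genes higher and 279 lower.

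Counted per cell after thinning to 2000 UMIs, 33.5% of members held a C1qa UMI (31.1 to 35.9), against 8.44% of the Ms4a7-negative monocytes and 5.28% of T cells, which should lack the gene. The shares with all UMIs were 48.3%, 16.7% and 13.4%. Gpnmb was seen in 67.5% of members, 10.9% of the monocytes and 10.9% of T cells after thinning. Trem2 was seen in 34.5%, 3.40% and 5.20%, and C3ar1 in 53.8%, 12.2% and 4.79%. The monocyte shares for C1qa, Gpnmb and Trem2 were thus near those of the T cell gate, and those of the members were above them. The T cell gate asked for at least 1 Cd3e UMI and did not leave out Csf1r. It held 73 cells that met every other limit of the members. The 43 of them with 1 Cd3e UMI had C1qa at 1274 CPM and Gpnmb at 1593. Its shares may thus overstate the background, and no stricter gate was counted here. Plac8 was seen in 60.1% of members and 92.5% of the monocytes, and in 52.0% of T cells.

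At day 7 the same limits took 274 cells with a median of 17052 UMIs and a mitochondrial share of 3.28%. This comparison was added after the data had been seen. The day 3 cells carried far more interferon-stimulated transcripts than those of day 7, and fewer Apoe and Spp1 transcripts. Against the Ms4a7-negative monocytes of the same day, the median log2 ratio of interferon-stimulated genes was -0.30 at day 3 and -0.035 at day 7. Against the Ly6c2-negative macrophages it was 0.84 and 0.91, and against the Car4 macrophages 1.53 and 2.22. The interferon difference between the days was thus not particular to this gate, and its cause was not tested. Of 1770 genes, 248 (14%) were higher at day 3 and 100 (5.65%) lower, with a median log2 ratio of 0.18. Within the rule's limits, Ly6c2 was at 3635 CPM at day 3 and 483 at day 7, and Ms4a7 at 845 and 387. Each day was 1 library, so the day and the library cannot be told apart, and transcripts of club cells in the droplets moved with it: Scgb1a1 was at 75.8 CPM at day 3 and 3061 at day 7 in these cells, at 1390 and 7045 in T cells and at 984 and 7176 in B cells.

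All 21 interferon-stimulated genes tested were called higher at day 3, with a median log2 ratio of 2.96. Of these, 16 reached 100 CPM at day 3 alone, which fixed their direction, and the 5 at the floor on both days were all higher. Isg15 was at 1523 CPM and 74.5, a log2 ratio of 4.35 (4.21 to 4.50). The RNA-binding antiviral proteins Ifit3 and Ifit1 were at 636 and 41.1 and at 382 and 43.9. Irf7, the transcription factor that amplifies the response, was at 1378 and 139, the radical enzyme viperin, Rsad2, at 839 and 93.2, and the guanylate-binding protein Gbp2 at 206 and 42.1. The chemokines Cxcl10 (991 and 174), Ccl5 (535 and 58.3), Ccl2 (3271 and 1025) and Ccl12 (607 and 158) were also higher at day 3, within a list of 14 chemokines of which 7 were higher and 3 lower. Of the 10 chemokines at the floor on both days, 5 were higher and 1 lower, and Ccl5 reached it at day 3 alone. Higher levels at day 3 were also seen for 4 of 4 p53 targets (2 of them at the floor on both days), among them Cdkn1a, an inhibitor of the cell cycle (1.21), and Mdm2 (1.38), for Fcgr1 (683 and 233) and Cfb (594 and 57.3), and for 3 of 10 antigen presentation genes. Cfb, too, reached the floor at day 3 alone, which fixed its direction.

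Type I interferon reaches such genes through the complex ISGF3, which binds the interferon-stimulated response element near their start sites. The element was sought as GAAA, any 2 bases and GAAA again, on both strands, in RefSeq promoter windows of 250 bases before to 50 bases after the start (GRCm38.p6). It lay in 1079 of 27025 promoters (3.99%) and in 10 of the 16 listed interferon-stimulated genes that had an entry (62.5%). It was in none of 14 maturation genes, none of 12 monocyte genes, 1 of 10 chemokine ligands, 2 of 11 lysosome genes, 1 of 8 antigen presentation genes and 1 of 9 scar-associated genes. The following 30-base windows, written along the gene's own strand, belong to 6 of the genes whose levels are given above, and capitals mark the match, or overlapping matches in Isg15.

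Isg15, chr4:156200877-156200906, minus strand: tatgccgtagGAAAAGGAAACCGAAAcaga
Ifit1, chr19:34640775-34640804, plus strand: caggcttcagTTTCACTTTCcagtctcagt
Ifit3, chr19:34583363-34583392, plus strand: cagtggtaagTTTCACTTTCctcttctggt
Rsad2, chr12:26456553-26456582, minus strand: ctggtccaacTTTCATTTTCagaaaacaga
Gbp2, chr3:142620594-142620623, plus strand: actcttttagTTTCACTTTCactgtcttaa
Cxcl10, chr5:92349083-92349112, minus strand: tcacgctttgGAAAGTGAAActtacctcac

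Isg15 and Cxcl10 held the element itself and the others its reverse complement, TTTC, any 2 bases and TTTC. The core TTTCACTTTC stood in Ifit1, Ifit3 and Gbp2 and, as its reverse complement, in Cxcl10. A match is a description of the sequence and not a measured binding site. The E-box of lysosomal genes, TCACGTGA, was in 304 of all promoters (1.12%) and in 1 of 11 lysosome genes with an entry, Ctsd.

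Ctsd, chr7:142387908-142387937, minus strand: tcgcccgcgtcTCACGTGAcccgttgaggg

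Genes with lower levels at day 3 than at day 7 included members of the scar-associated, maturation and matrix lists. The lowest ratios were those of club cell secretory transcripts, with Scgb1a1 at -5.34. Apoe was at 2264 CPM at day 3 and 19012 at day 7, Spp1 at 1872 and 8348, Trem2 at 324 and 774, C1qa at 1252 and 2570, Mmp12 at 14.8 and 161, fibronectin, Fn1, at 117 and 911, and Mrc1 at 14.2 and 138. The scar-associated list had 5 of 10 genes lower and 1 higher, Lgals3, the maturation list 6 of 19 lower and 1 higher, and the matrix list 4 of 8 lower and 1 higher. At the floor on both days, 3 of 8, 3 of 13 and 2 of 6 genes of these lists were lower. The chemokine Ccl6 (420 and 3007) and the early response gene Egr1 (60.8 and 471) were lower at day 3 as well. Gpnmb (1865 and 2226), Fabp5 (3543 and 4938) and C3ar1 (506 and 419) did not reach 2-fold, and of 15 lysosome genes only Ctsd (-1.58) and Atp6v0d2 (-3.13) were called, both lower at day 3. Scgb1a1, Mmp12, Mrc1, Egr1 and Atp6v0d2 reached the floor at day 7 alone, which fixed their direction.

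**Figure D4:**
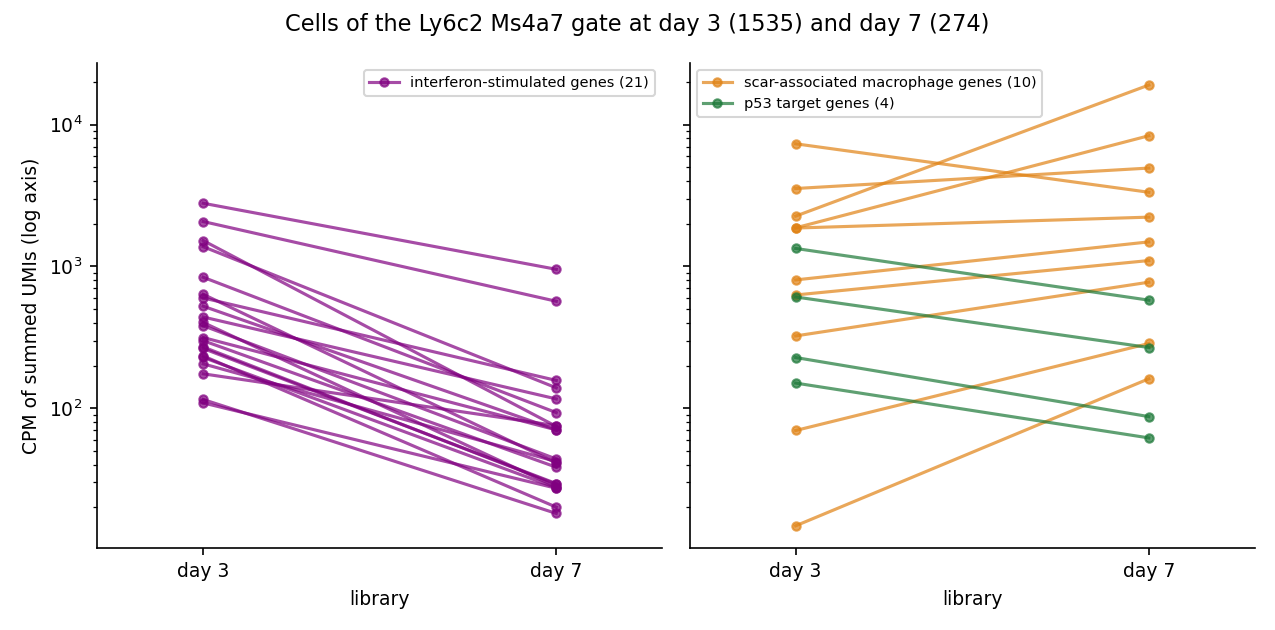
Levels (CPM of summed UMIs, log axis) of interferon-stimulated genes (left) and of scar-associated and p53 target genes (right) in the cells of the gate at day 3 (1535) and day 7 (274). Each line is a gene, and all 21 interferon-stimulated genes are higher at day 3, while 5 of 10 scar-associated genes are past 2-fold higher at day 7.

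The contrasts of day 3 were also drawn within the day 7 library, whose cells had not chosen the genes. Its gates were split by the same rule genes, so genes that accompany these had to differ again. The counts below include genes that reached the floor in a single gate at day 3, and they are a description. Of the 156 genes higher than in Ms4a7-negative monocytes at day 3, 142 lay in the same direction at day 7 and 29 of them past 2-fold (18.6%). Of all 1833 genes tested, 39.6% lay above 0 at day 7 and 1.80% past 2-fold. Of the 130 lower genes, 123 lay in the same direction and 38 past 2-fold, where all genes gave 60.4% and 2.78%. Against Ly6c2-negative Ms4a7 macrophages the figures were 61 of 65 (18 past 2-fold) and 81 of 86 (12), beside 53.3% (1.67%) and 46.7% (0.669%) of all genes. Against Car4 macrophages they were 284 of 285 (196) and 260 of 272 (174), beside 47.9% (11.4%) and 52.1% (10.0%). The median of the maturation list against the monocytes was 1.24 at day 7 beside 2.24 at day 3, and that of the scar-associated list 1.47 beside 2.47. The median of the antigen presentation list was -1.07 at day 7 beside 0.02 at day 3. No test of these differences was possible with 1 library per day.

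The few cells in the gate elsewhere give single values. The 5 sham cells together had Plac8 at 3497 CPM (3012 to 4037), C1qa at 432 (274 to 649), Isg15 at 470 and Gpnmb at 18.8, the last from 1 UMI. The 4 cells of day 14 had C1qa at 2657 and Gpnmb at 288, and the 4 of day 28 had Gpnmb at 3379 and Ccl2 at 10.8, from 1 UMI.

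The lineage reporter was counted to see where the members stood among the myeloid gates. Summed RFP was 860 CPM (848 to 871) in the members, 1318 (1293 to 1344) in the Ms4a7-negative monocytes, 510 (454 to 570) in the Ly6c2-negative Ms4a7 macrophages and 154 (147 to 162) in the Car4 macrophages. Neutrophils, at 2250, and nonclassical monocytes, at 1449, were above the members, and dendritic cells, at 436, were below. B and T cells, which do not descend from these progenitors, had 336 and 185 CPM. After thinning to 2000 UMIs, 28.3% of members (433 of 1532, 26.0 to 30.6) held at least 3 reporter UMIs, against 50.2% (46.5 to 53.9) of the monocytes, 24.1% (13.5 to 37.6) of the Ly6c2-negative macrophages, 2.84% (1.72 to 4.39) of the Car4 macrophages and 66.7% of neutrophils. The background was 7.40% in B cells and 3.63% in T cells, and 0.605% and 0.272% in B and T cells with at least 3 Cd79a or Cd3e UMIs and no Csf1r UMI. Without predicted doublets the thinned share of the Car4 macrophages was lower, as given with the processing below. With all UMIs the share was 85.3% in the members and 83.9% in the monocytes. The thinned share of the members was thus above that of B and T cells. In the day 7 cells of the gate, RFP was at 341 CPM.

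The members varied widely among themselves. Per 10000 UMIs, C3ar1 had quartiles of 1.93, 4.30 and 7.37 and a highest value of 27.0, and Gpnmb had 1.35, 12.6 and 28.2, up to 101. C1qa was at 0 at the lower quartile and the median, 12.5 at the upper quartile and 42.8 at the ninetieth percentile. H2-Aa had a median of 2.04 and an upper quartile of 23.9, and Cxcl10 a median of 0.421 and a ninetieth percentile of 25.6. The summed levels of C1qa, H2-Aa and Cxcl10 thus came mostly from a minority of members, whereas C3ar1 was spread over most of them.

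Across members split by the Ms4a7 UMIs left after thinning to 2000 UMIs (510 cells with 0, 389 with 1, 249 with 2 and 384 with 3 or more), levels were graded. C1qa was at 762, 980, 1295 and 2176 CPM, C3ar1 at 372, 489, 580 and 662, Adgre1 at 165, 219, 267 and 321 and Lgmn at 1391, 1702, 1997 and 2329. Plac8 went down over the same classes, at 1736, 983, 751 and 551, as did Cxcl10 at 1424, 918, 877 and 538. Ccl2 differed little, between 3020 and 3455, and Gpnmb was highest in the class with 2 UMIs (2299). Median UMIs per cell were 15597.5, 15530, 14966 and 15961 in the classes. Since Ms4a7 set the rule, this order is a description of the members.

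In rank terms over 1532 thinned members, C1qa went with C1qb (Spearman rho 0.77), H2-Aa with Cd74 (0.82), Gpnmb with Fabp5 (0.55) and Ccl2 with Ccl7 (0.53), and Gpnmb went against Plac8 (-0.45). C1qa and Gpnmb, both higher than in the monocytes, were nearly unrelated (-0.15), as were H2-Aa and Gpnmb (-0.18). These cells share a library and the thinned counts are sparse.

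Clustering of the members gave 9 clusters, described by their leading genes and numbered by size. The defining genes come from the cells clustered and are no test. Cluster 1 (378 cells, 24.6%) led with Plpp3 (100 against 21.6 CPM in the other members) and Bhlhe41 (150 against 37.2), and also held Fabp5 at 6487 CPM against 2482, Gpnmb at 3409 against 1308 and the protease Ctsk at 527 against 161. Cluster 2 (279 cells, 18.2%) led with the matrix protein gene Mgp at 446 against 25.1, Timp1, an inhibitor of matrix proteases, at 150 against 10.3 and Cd72 at 529 against 71.7, and also held C1qa at 3348 against 751 and H2-Aa at 5556 against 1255. Cluster 3 (269 cells, 17.5%) had among its leading genes Cxcl10 at 3148 against 571, Isg15 at 4170 against 1008 and Ccl4 at 2220 against 462. Cluster 5 (225 cells, 14.7%) had among its leading genes Gbp2 at 578 against 138 and Cxcl9 at 328 against 97.4. Nos2, the inducible nitric oxide synthase, was not among them and stayed under 100 CPM, at 70.8 against 21.6 over all members. Cluster 4 (240 cells, 15.6%) had few genes of its own, with Apoe at 3916 against 1962 and Cxcl1 at 105 against 37.6. These 5 clusters had similar reporter levels, between 780 and 931 CPM.

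Some of the smaller clusters differed from the label. Cluster 6 (68 cells, 4.43%) held Plac8 at 7808 CPM, Ccr2 at 745, Ace at 213 against 8.53 and Treml4 at 112 against 3.69, while C3ar1 was at 8.29 and Gpnmb at 21.3, and its reporter level was 1430. Cluster 7 (36 cells, 2.35%) led with Lars2 (621 against 176) at a median of 6438 UMIs per cell. Cluster 8 (22 cells) carried the neutrophil gene S100a9 at 17750 CPM against 34.5, and 20 of its cells (90.9%) were predicted doublets. Cluster 9 (18 cells) carried the NK cell protease Gzma at 2981 against 9.29, and 14 of its cells (77.8%) were predicted doublets. Most S100a9 and Gzma transcripts of the members lay in these small clusters.

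**Figure D5:**
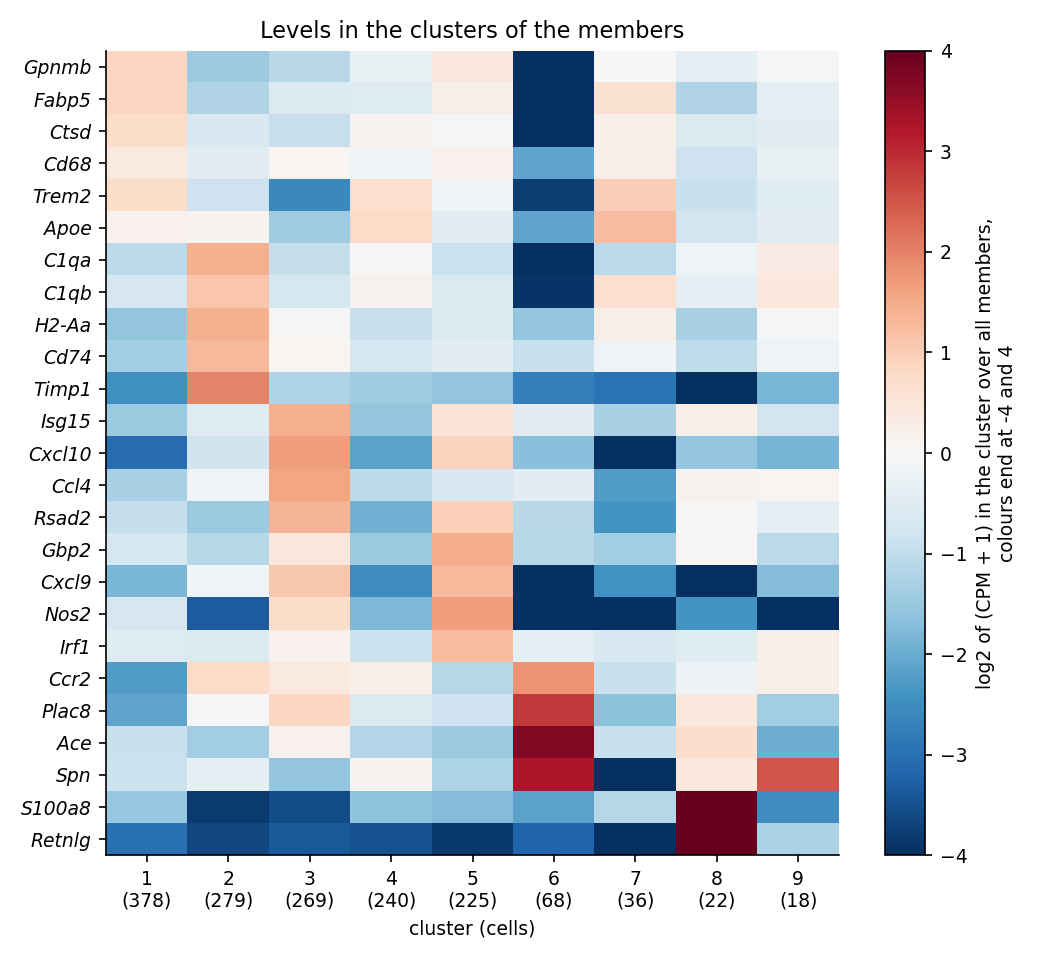
Heat map of 25 genes (rows) in the 9 clusters of the members (columns, with cell numbers), coloured by the log2 ratio of CPM + 1 in the cluster over CPM + 1 in all members, with colours ending at -4 and 4. Gpnmb and Fabp5 are highest in cluster 1, C1qa and H2-Aa in cluster 2, Isg15 and Cxcl10 in cluster 3, Gbp2 and Nos2 in cluster 5, Plac8 and Ace in cluster 6 and S100a8 in cluster 8.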

How the data were processed

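Per the labels and the study's methods, lung immune cells from perfused, collagenase-digested lungs were loaded on the 10x 3′ v3.1 chemistry, and the authors aligned reads to mm10 with the added RFP sequence and called cell barcodes with Cell Ranger 6.0.0, while the headers of the deposited matrices give software version 3.1.0. The deposited values are counts of UMIs per gene and barcode (28693 features, 5 libraries), not normalized and already restricted to called cells. Here, cells were gated on raw counts and summed within each gate, and CPM were formed per gate. CPM have exact Poisson intervals, shares exact binomial intervals, and log2 ratios exact conditional binomial intervals, all at 95% and for counting error only. With 1 library per group no p-value was computed. A planned test across libraries needed at least 20 cells in both gates of 3 libraries other than day 3, and day 7 alone reached this.

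The comparison gates at day 3 were defined likewise on raw UMIs. Ms4a7-negative monocytes met the members' limits with 0 Ms4a7 UMIs. Ly6c2-negative Ms4a7 macrophages had 0 Ly6c2, at least 1 Ms4a7, at least 1 Csf1r and at most 1 Car4 UMI and none of Flt3, Cd3e, Cd79a, Ace and Treml4. Car4 macrophages had at least 2 Car4 UMIs and none of Flt3, Cd3e and Cd79a. The Car4 and neutrophil gates shared 5 cells.

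The members and the 31 gene lists were chosen with earlier results of these data known. The text names genes of these lists and, in each comparison, the 10 largest ratios in each direction among genes at 100 CPM or more and past 2-fold, leaving out the 7 genes of the rule and mitochondrial, ribosomal, Gm and Rik genes; further genes, such as the rule genes, were named as descriptions. Doublets were predicted with Scrublet in scanpy 1.11.5 and kept. Members were clustered on 2000 variable genes, 20 components and 15 neighbours (Leiden, resolution 0.5). Gene positions are from GENCODE vM21 and promoters from RefSeq (GRCm38.p6). Computation used Python 3.11.15, numpy 2.4.6, scipy 1.17.1 and pandas 2.3.3, and the ratios and calls were tested on simulated data. Some genes that the rule would name are not reported here.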

Additional observations from a re-analysis of the deposited data

Results flagged for a closer look

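Spp1, which encodes osteopontin, stood on opposite sides in the comparison with Car4 macrophages at day 3 and day 7. At day 3 the log2 ratio of the members over the Car4 macrophages was -1.67 (1872 against 5970 CPM), and at day 7 that of the cells of the same gate was 1.41 (8348 against 3142 CPM). Each day was 1 library, and the difference between the days was not tested.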

How the results depend on the processing

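Over the planned and added alternatives other than the CPM floors, which leave a gene's ratio as it is, calls of named genes were kept in 493 of 517 gene and setting pairs against the Ms4a7-negative monocytes, 304 of 328 against the Ly6c2-negative macrophages, 831 of 835 against the Car4 macrophages and 222 of 226 against day 7. The share of members was 17.1% with at least 2 Ms4a7 UMIs and 5.50% after thinning. A floor of 50 CPM gave 251 genes higher and 210 lower than in the monocytes, and a floor of 200 CPM gave 78 and 68, while leaving out cells with Ace or Treml4 UMIs gave 79 lower. Against the Ly6c2-negative macrophages, 164 were lower at 50 CPM, 43 were higher and 54 lower at 200 CPM, and 145 were higher at 8000 to 16000 UMIs. Against the Car4 macrophages, 456 were lower at 50 CPM, and 178 were higher and 133 lower at 200 CPM. Against day 7, a floor of 200 CPM gave 134 higher and 63 lower. A different floor tests fewer or more genes, and for the other changes the cause was not tested.

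The reporter share in the members was 47.6% at 2 UMIs, 7.64% at 5 and 85.3% without thinning. It was 65.6%, 22.2% and 83.9% in the monocytes, 5.67%, 0.746% and 26.9% in the Car4 macrophages (1.65% without doublets), 11.1%, 3.04% and 21.2% in B cells (0.605% in the stricter gate) and 7.34%, 1.32% and 16.7% in T cells (0.272% in the stricter gate). A resolution of 1 gave 15 clusters.

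Medians of short lists and the ratios of a pair of neutrophil genes turned sign. That of alternative activation genes against the monocytes was 0.0038 with the mean of per-cell CPM and 0.17 at 8000 to 16000 UMIs, and against the Ly6c2-negative macrophages 1.22 at 8000 to 16000 UMIs. That of alveolar macrophage markers against the monocytes was 0.070 at 50 CPM. Against the Ly6c2-negative macrophages, S100a8 was 3.50 with at least 2 Ms4a7 UMIs and 4.24 at 8000 to 16000 UMIs, and S100a9 was 2.67 and 2.07. The cause was not tested.

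No paired analysis was possible because each group was 1 library and the labels give no replicate numbers. The planned quasi-likelihood test over the libraries other than day 3 was not run, since day 7 alone had enough cells in both gates (5 cells in sham, 4 at day 14 and 4 at day 28), and its alternatives were not run either: the other size factors, no filter on low counts, no block, day 3 included, libraries left out in turn and a limit of 10 cells. The Ly6c2-negative gate held 57 cells, which limits the precision of its ratios.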
